A study of Mus musculus with 12 samples.

Results

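The 10 genes described here encode the NKG2 family receptors and their partner CD94 (Klrc1, Klrc2, Klrd1, Klrk1 and Klre1), the receptors KLRG1 and NKp46 (Klrg1 and Ncr1), and 3 signalling adaptors (Hcst, Tyrobp and Fcer1g). They were chosen by gene family, out of 54232 gene identifiers in a table of read counts, and all 10 were among the 13279 genes that passed the filter on low counts. RNA was measured in 12 libraries of 300 cells each, sorted from subcutaneous tumours of the mouse colon adenocarcinoma line MC38, which were isolated 8 to 10 days after injection. The cells were NK cells (CD45+, CD3ε-, NK1.1+) or CD8 T cells (CD45+, CD3ε+, CD8a+), and the hosts were C57BL/6N mice matched for sex and age. The hosts were wild type (WT), lacked the Janus kinase TYK2 (labelled TYK2KO, here KO), or had a TYK2 protein without kinase activity, made by a point mutation in its gene (labelled TYK2KE, here KE). This gave 6 groups of 2 libraries, and no group had received any other treatment. The labels do not say whether the 2 libraries of a group came from separate animals, so the tests measure the spread between libraries, which may be technical.

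Most of these receptors have no signalling motif of their own and work through an adaptor in the membrane. CD94, encoded by Klrd1, pairs with NKG2A (Klrc1), an inhibitory receptor with ITIM motifs, or with NKG2C (Klrc2), an activating receptor that uses DAP12, and both pairs bind the non-classical MHC molecule Qa-1b. NKG2D (Klrk1) recognises stress-induced ligands and signals through DAP10 (Hcst), and in mouse NK cells also through DAP12 (Tyrobp). NKp46 (Ncr1) is an activating receptor of NK cells and some innate lymphoid cells and couples to the FcR gamma chain (Fcer1g). KLRE1 (Klre1, also called NKG2I) forms pairs with KLRI1 or KLRI2, and KLRG1 is an inhibitory receptor for cadherins. DAP12 and the FcR gamma chain carry ITAM motifs that recruit SYK family kinases, whereas DAP10 recruits phosphatidylinositol 3-kinase and GRB2.

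All 10 genes are protein coding, and no other annotated gene overlaps them on GRCm38. Klre1 (ENSMUSG00000050241, chr6:129577905-129585827, plus strand), Klrd1 (ENSMUSG00000030165, chr6:129591782-129598775, plus), Klrk1 (ENSMUSG00000030149, chr6:129610323-129623864, minus), Klrc2 (ENSMUSG00000052736, chr6:129647496-129660689, minus) and Klrc1 (ENSMUSG00000030167, chr6:129666015-129678973, minus) follow each other in this order in the NK gene complex. Klrc1 and Klrc2 are 5325 bases apart. Klrg1 (ENSMUSG00000030114, chr6:122270596-122282882, minus) lies on the same chromosome outside this cluster. Ncr1 (ENSMUSG00000062524, chr7:4337724-4345164, plus) lies on chromosome 7 far from the adaptor pair, in which Tyrobp (ENSMUSG00000030579, chr7:30413760-30417585, plus) and Hcst (ENSMUSG00000064109, chr7:30417712-30419854, minus) end towards each other with 126 bases between them. Fcer1g (ENSMUSG00000058715, chr1:171229572-171234365) is on the minus strand of chromosome 1. Only reads that aligned to 1 place were counted, which matters for the Klrc genes: 38.6% of the 50-base words in Klrc1 transcripts and 29.4% of those in Klrc2 transcripts also occur in another gene, mostly in each other. The levels of Klrc1 and Klrc2 are therefore uncertain and are likely too low, and the other 8 genes shared no such word.

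Promoter windows of 300 bases, from 250 before to 50 after the start, were found in RefSeq (build GRCm38.p6) for 7 of the 10 genes, all but Klrd1, Klrg1 and Tyrobp. The 5 windows shown are those of 2 genes with far higher levels in NK libraries (Ncr1 and Fcer1g), of the neighbours Klrc1 and Klrc2, whose levels lay on opposite sides between the cell types, and of Hcst, whose levels differed by less than 2-fold. Each is written 5′ to 3′ on the strand of its gene, and capitals mark matches on either strand to TGTGGT, the core recognised by RUNX factors, or, in Hcst, to the ETS-type core AGGAAGT.
Ncr1 (chr7:4337465-4337764, plus): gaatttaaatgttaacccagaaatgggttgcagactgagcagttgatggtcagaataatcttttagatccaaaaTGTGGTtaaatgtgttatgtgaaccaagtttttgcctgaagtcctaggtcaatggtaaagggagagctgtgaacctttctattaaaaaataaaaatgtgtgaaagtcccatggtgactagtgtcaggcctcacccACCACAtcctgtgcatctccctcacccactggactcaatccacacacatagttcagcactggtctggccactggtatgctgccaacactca
Fcer1g (chr1:171234300-171234599, minus): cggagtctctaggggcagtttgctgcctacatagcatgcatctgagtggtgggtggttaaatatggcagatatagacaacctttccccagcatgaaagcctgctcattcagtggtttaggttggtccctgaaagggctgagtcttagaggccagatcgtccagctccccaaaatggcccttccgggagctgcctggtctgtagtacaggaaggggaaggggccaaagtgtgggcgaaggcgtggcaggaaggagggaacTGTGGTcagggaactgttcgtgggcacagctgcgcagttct
Klrc2 (chr6:129660547-129660846, minus): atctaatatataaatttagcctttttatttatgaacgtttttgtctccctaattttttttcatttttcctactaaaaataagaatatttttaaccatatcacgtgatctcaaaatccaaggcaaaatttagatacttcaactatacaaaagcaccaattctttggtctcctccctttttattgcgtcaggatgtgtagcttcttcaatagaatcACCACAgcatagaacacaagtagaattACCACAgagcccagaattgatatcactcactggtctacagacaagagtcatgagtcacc
Klrc1 (chr6:129678924-129679223, minus): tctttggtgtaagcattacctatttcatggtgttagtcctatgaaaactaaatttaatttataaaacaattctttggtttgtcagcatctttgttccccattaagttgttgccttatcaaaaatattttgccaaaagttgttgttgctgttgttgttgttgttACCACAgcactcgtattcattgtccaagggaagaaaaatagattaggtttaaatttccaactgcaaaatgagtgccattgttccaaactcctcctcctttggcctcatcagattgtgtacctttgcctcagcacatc
Hcst (chr7:30419805-30420104, minus): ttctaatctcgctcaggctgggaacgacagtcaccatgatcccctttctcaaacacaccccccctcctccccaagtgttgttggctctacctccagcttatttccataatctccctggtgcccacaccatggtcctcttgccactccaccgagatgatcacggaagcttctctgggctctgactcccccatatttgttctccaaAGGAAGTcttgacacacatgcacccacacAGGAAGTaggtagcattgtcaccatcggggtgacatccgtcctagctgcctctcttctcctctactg

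In the first window of each gene, TGTGGT was present in 6 of the 7 genes (Ncr1, Fcer1g, Klrc1, Klrc2, Klrk1 and Klre1) and in 16.9% of the first windows of all 27025 genes. Hcst had no such match, and AGGAAGT was present in Hcst alone of the 7 and in 9.57% of all genes. The interferon response core GAAANNGAA was present in Klrk1 (8.57% of all genes), and neither TTCNNNGAA, the STAT-type core, nor the T-box core GGTGTGA was present in any of the 7 (8.47% and 3.96% of all genes). No matches overlapped each other. The Klrc1 window was identical to the first Klrc2 window at 160 of 322 aligned columns (49.7%), to a second Klrc2 window at 167 of 323 (51.7%) and to that of their neighbour Klrc3 at 51.9%, against 46.1% to 51.4% with those of the unrelated or distant Fcer1g, Klre1, Klrk1, Ncr1 and Hcst.

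Total counts were 10378761 to 14732882 per library, and values are given as CPM, the counts relative to 1e+06 reads after TMM scaling. A gene without reads could be present at up to 0.218 to 0.276 CPM, the value of 3 counts, and this floor covers counting error only because the reads carry no molecular identifiers. Tyk2 did not separate the genotypes: its level was 56.3 to 119 CPM in NK libraries and 46.7 to 86.1 CPM in CD8 libraries, and no mutant group differed from WT (edgeR log2 fold change 0.31, SE 0.48, FDR 1, for KO in NK libraries). KO and KE below therefore mean libraries labelled so. The sort markers went with the cell type labels, since Klrb1c (NK1.1) was at 1066 to 2248 CPM in NK and 1.41 to 5.05 CPM in CD8 libraries and Cd8a at no more than 4.52 CPM in NK and 2825 to 4086 CPM in CD8 libraries. Cd3e was at 581 to 1452 CPM in CD8 libraries and at 7.17 to 51.7 CPM in NK libraries.

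Transcripts of myeloid cells were unevenly spread over the NK libraries. The summed level of 18 myeloid markers was 19431 and 17637 CPM in NK WT 1 and WT 2 and 8214 CPM in NK KO 1, but 269.9 CPM in NK KO 2 and 229 and 672 CPM in NK KE 1 and KE 2. It was 344 to 1029 CPM in CD8 libraries. Apoe, the strongest of them, ran from 7119 CPM in NK WT 1 to 2.00 CPM in NK KO 2, and Lyz2 from 3376 CPM in NK KO 1 to 14.2 CPM in NK KE 1. The antigen presentation genes of the dendritic list followed the same libraries, with Cd74 at 1228, 3215 and 2058 CPM in NK WT 1, WT 2 and KO 1 and at 16.2 to 150.5 CPM in the other 3. Of the mast cell and basophil list, Fcer1a, Ms4a2, Mcpt8, Mcpt4 and Tpsb2 were at 0 in every NK library, while Kit was at 30.7 to 170 CPM, Cma1 at 0.0837 to 52.2 CPM, Cpa3 at 0 to 12.8 CPM and Hdc at 0 to 7.49 CPM, and the list summed to 50.1 to 224 CPM in NK and 4.98 to 71.9 CPM in CD8 libraries. In the neutrophil list, 9 of 10 neutrophil markers were at 0 in all NK libraries. Tyrobp and Fcer1g are also expressed by myeloid cells, so these sums are given again beside the results they touch.

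The NKG2 receptors fell into 3 patterns between NK and CD8 T cells. Klrc2 and Klre1 were higher in NK cells, Klrc1 passed the test in WT, where it was lower in NK cells, and Klrd1 and Klrk1 differed by less than 2-fold. Within a genotype, 5 of the 10 genes differed between NK and CD8 libraries in WT and 4 each in the KO and the KE libraries (FDR under 0.05 by edgeR's quasi-likelihood test, two-sided, after the filter on low counts, and at least a 2-fold difference), where 0.776%, 0.904% and 0.7% of all tested genes did. In the average of the 3 within-genotype differences, a contrast added after the data were seen, 5 of the 10 genes differed, against 4.47% of all genes. Each library is a pool of cells, so fewer cells with a transcript and less of it per cell cannot be told apart.

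**Figure D1:**
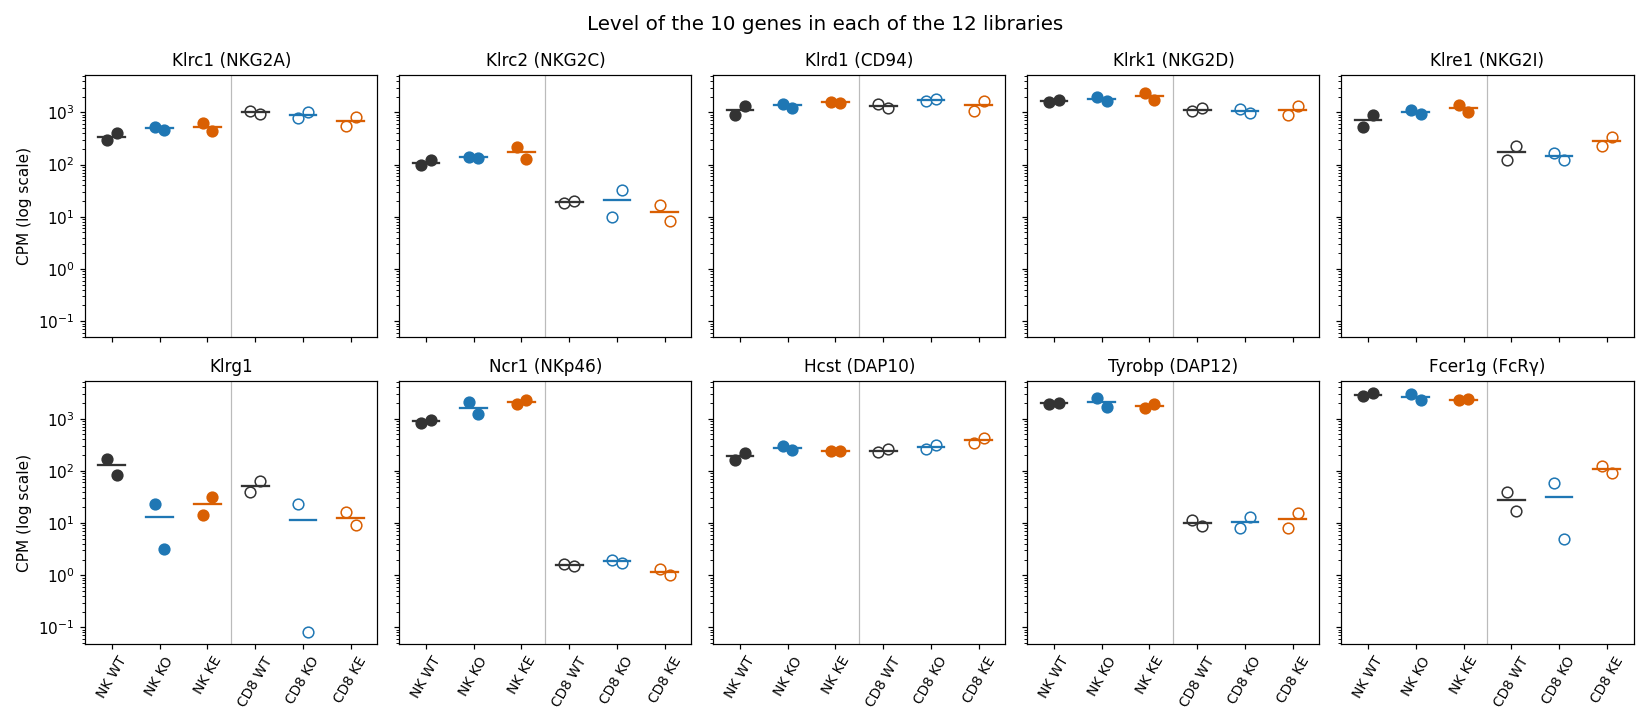
Level of each gene in CPM (vertical axis, log scale) in the 12 libraries, by group; points are libraries, filled for NK and open for CD8, and the horizontal line is the mean of the 2 libraries. Ncr1, Tyrobp, Fcer1g, Klrc2 and Klre1 lie higher in all 6 NK libraries, Klrd1 and Hcst lie at like levels in both cell types, and Klrg1 is lower in all mutant libraries, down to 0.0830 CPM in CD8 KO 2.

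Klrc1, the inhibitory NKG2A, was at 290.5 and 397.8 CPM in NK WT, 527.6 and 466 CPM in NK KO and 631 and 435 CPM in NK KE. In CD8 libraries it reached 1079 and 938 CPM in WT, 797 and 1012 CPM in KO and 558 and 799 CPM in KE. The ranges of the cell types overlapped only through NK KE 1 and CD8 KE 1. The NK level was lower in WT (log2 fold change -1.55, SE 0.27, FDR 0.0273), while the values of -0.86 (SE 0.26, FDR 0.254) in KO and -0.35 (SE 0.26, FDR 0.704) in KE did not pass. In the average of the genotypes the value was -0.92 (SE 0.15, FDR 0.00597), short of the 2-fold limit of the call. The call in WT was lost in the fit of the 4 WT libraries alone and without any 1 of the 4 WT libraries, where the value was -1.81 to -1.38.

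Klrc2, the activating NKG2C, went the other way. It was at 96.2 and 122 CPM in NK WT, 140 and 133 CPM in NK KO and 215 and 130 CPM in NK KE, against 18.8 and 19.7, 10.1 and 32.3, and 16.6 and 8.35 CPM in CD8 WT, KO and KE. All 6 NK libraries were above all 6 CD8 libraries. The difference passed in KE (log2 fold change 3.79, SE 0.64, FDR 0.0267) and in the average of the genotypes (2.99, SE 0.36, FDR 7.80e-04), and the values in WT (2.50, SE 0.61, FDR 0.116) and KO (2.69, SE 0.61, FDR 0.0922) did not pass by edgeR with the filter but did without it, where 2.27% and 2.21% of all genes were called, and by DESeq2, where 7.25% and 7.43% were. The value in KO was 2.08 without CD8 KO 1 and 3.76 without CD8 KO 2. The call in KE was lost without any 1 of the 4 KE libraries (3.37 to 4.37), and that of the average held without any 1 of the 12.

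The ratio of Klrc2 to Klrc1 reads varied little among NK libraries. It was 0.331 and 0.306 in NK WT, 0.266 and 0.286 in NK KO and 0.341 and 0.299 in NK KE, and 0.0104 to 0.0319 over the CD8 libraries. The 6 NK libraries thus lay within 0.266 to 0.341 whatever their myeloid sum, and both KO libraries lay below all WT and KE libraries. Because reads that fit both genes were not counted for either, these ratios are not ratios of molecules.

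Klrd1, the shared partner CD94, overlapped between the cell types. It was at 881 and 1326 CPM in NK WT, 1481 and 1233 CPM in NK KO and 1609 and 1528 CPM in NK KE, and at 1467 and 1228, 1665 and 1779, and 1075 and 1678 CPM in CD8 WT, KO and KE. In the average of the genotypes the NK level was -0.15 on the log2 scale from the CD8 level (95% interval -0.46 to 0.17, FDR 0.706), so that a 2-fold difference in either direction lay outside the interval.

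Klrk1, which encodes NKG2D, was higher in every NK library than in any CD8 library, but by less than the 2-fold limit of the call. It was at 1577 and 1697, 2004 and 1631, and 2387 and 1729 CPM in NK WT, KO and KE and at 1062 and 1197, 1158 and 960.0, and 886 and 1356 CPM in CD8 WT, KO and KE. The averaged log2 fold change was 0.73 (SE 0.14, FDR 0.0106, 95% interval 0.43 to 1.03). Klrk1 together with Klrc2, Klre1, Ncr1, Tyrobp and Fcer1g made 6 of the 10 genes with all NK libraries above all CD8 libraries, which held for 2.03% of all tested genes. None of the 10 had all NK libraries below all CD8 libraries, which held for 2.83% of all tested genes.

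Klre1 was the NKG2 family gene that was called higher in NK cells in all 3 genotypes. It was at 531 and 909 CPM in NK WT, 1118 and 949 CPM in NK KO and 1395 and 1017 CPM in NK KE, and at 123.5 and 224, 170.2 and 120.6, and 223 and 336 CPM in the matching CD8 libraries. The log2 fold change was 2.05 (SE 0.37, FDR 0.0346) in WT, 2.83 (SE 0.39, FDR 0.00682) in KO and 2.11 (SE 0.38, FDR 0.0351) in KE. The call in KO was lost without CD8 KO 2 (2.61), that in WT was lost without each of 9 of the 12 libraries in turn and that in KE without each of 6 (1.59 to 2.54 and 1.84 to 2.44 over all 12), while the averaged difference of 2.33 (SE 0.22, FDR 1.70e-04) held without any 1 of the 12. Its partner Klri2 was at 503 to 1215 CPM in NK and 1.11 to 44.2 CPM in CD8 libraries and was called in all 3 genotypes.

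Ncr1, which was not used for the sort, separated the cell types most widely. NK WT libraries held 843 and 934 CPM, NK KO 2049 and 1230 CPM and NK KE 1902 and 2298 CPM. The 6 CD8 libraries held 1.03 to 1.99 CPM, or 14 to 26 reads each. WT NK libraries were 560-fold higher than their CD8 counterparts, KO 873-fold and KE 1778-fold (log2 fold change 9.13, SE 0.35, 9.77, SE 0.36, and 10.80, SE 0.37, with FDR 5.41e-07, 3.40e-07 and 1.89e-07). The calls held without any 1 of the 12 libraries.

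Klrg1 was the most variable of the receptors. It ran from 3.18 to 170 CPM over NK libraries and from 0.0830 to 64.4 CPM over CD8 libraries, where the lowest value is 1 read. The NK and CD8 levels did not differ beyond this spread (averaged log2 fold change 0.77, SE 0.88, FDR 0.787).

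The adaptors divided sharply. Tyrobp was at 1939 and 2037 CPM in NK WT, 2463 and 1672 CPM in NK KO and 1604 and 1943 CPM in NK KE, and at 8.18 to 15.5 CPM in CD8 libraries. The NK excess was 198-fold for WT, 194-fold for KO and 149-fold for KE (log2 fold change 7.63, SE 0.43, 7.60, SE 0.43, and 7.22, SE 0.43, with FDR 1.56e-05, 1.31e-05 and 1.80e-05). The myeloid sum was 19431 and 17637 CPM in NK WT against 548 and 853 CPM in CD8 WT, 8214 and 269.9 CPM in NK KO against 519 and 344 CPM in CD8 KO, and 229 and 672 CPM in NK KE against 1029 and 536 CPM in CD8 KE. Its part in the Tyrobp difference was not tested.

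Fcer1g was at 2757 and 3058 CPM in NK WT, 2930 and 2314 CPM in NK KO and 2285 and 2335 CPM in NK KE. The 3 NK libraries with high myeloid sums were its 3 highest. CD8 libraries held 38.7 and 17.1 CPM in WT, 59.3 and 4.90 CPM in KO and 123 and 92.9 CPM in KE. The NK excess was called in WT (log2 fold change 6.70, SE 0.98, FDR 0.0101) and KO (6.35, SE 0.96, FDR 0.0114), and the value in KE (4.42, SE 0.88, FDR 0.0555) did not pass by edgeR with the filter. It did pass by DESeq2 (7.22% of all genes called), and by edgeR without the filter (2.1%), with the 4 KE libraries alone, and without CD8 KO 1 or CD8 KO 2. The call in WT was lost without CD8 WT 1 (7.41) or CD8 WT 2 (6.23), the value in KO was 9.06 without CD8 KO 1 and 5.47 without CD8 KO 2 and stayed called in both, and the averaged difference of 5.82 (SE 0.54, FDR 1.67e-04) held without any 1 of the 12 libraries.

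Hcst overlapped between the cell types. It was at 158 and 224, 299.6 and 256, and 242 and 244 CPM in NK WT, KO and KE and at 232 and 258, 262 and 311, and 345 and 427 CPM in CD8 WT, KO and KE. The averaged log2 fold change was -0.36 (SE 0.14, FDR 0.198, 95% interval -0.67 to -0.04), short of the call and of 2-fold.

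**Figure D2:**
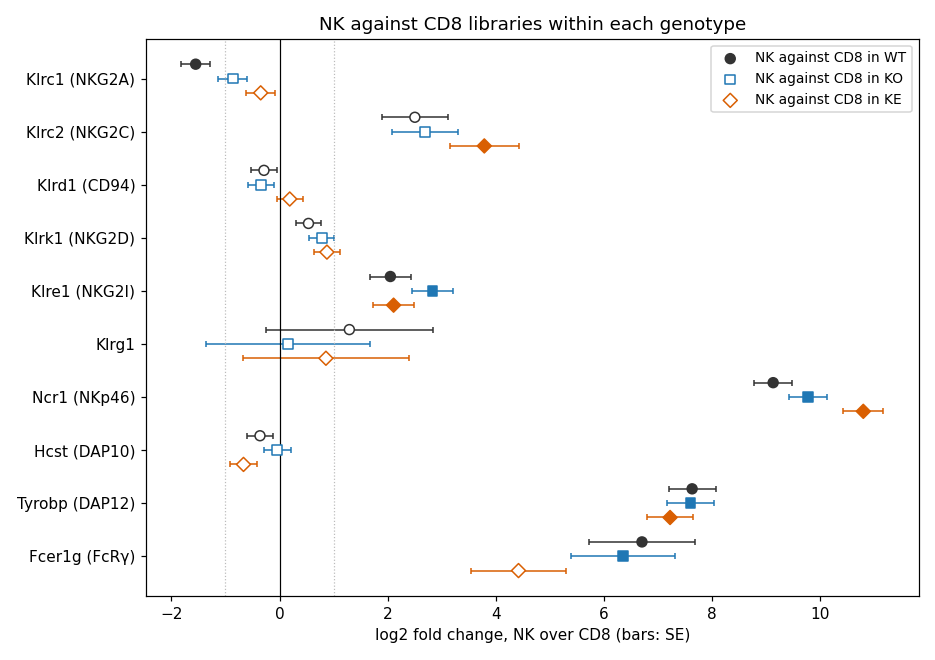
Log2 fold change of NK over CD8 libraries (horizontal axis) for each gene within WT, KO and KE; bars are the SE, filled points passed the call and dotted lines mark a 2-fold difference. Ncr1, Tyrobp and Fcer1g lie at 4.42 to 10.80, Klrc2 and Klre1 at 2.05 to 3.79, and Klrd1, Klrk1 and Hcst within 1 of 0, while Klrc1 is the gene called lower in NK cells, in WT.

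Levels of different genes were compared per kilobase of exon. Over the 6 NK libraries Fcer1g had a mean of 3494 ± 461 CPM per kb (SD, n = 6) and Tyrobp 3445 ± 542, and their ranges overlapped. Both were above every receptor, of which Klrd1 led with 1391 ± 274, followed by Ncr1 (1002 ± 402), Klre1 (762 ± 218), Klrk1 (535 ± 89.5), Klrc1 (231 ± 58.4), Klrc2 (43.4 ± 12.5) and Klrg1 (38.5 ± 44.7). Hcst (537 ± 105) stood at the level of Klrk1, the receptor it serves, and was the higher of the 2 in 4 of 6 libraries. Per kilobase of the longest transcript instead, the mean of Klrk1 (575) was above that of Hcst (537). In the order by summed exon length the steps from Tyrobp to Klrd1, from Klrk1 to Klrc1 and from Klrc1 to Klrc2 had no overlap between libraries, and all other neighbours overlapped.

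In CD8 libraries the order was another one. Klrd1 led with 1534 ± 289 CPM per kb (SD, n = 6) without overlap with the next gene, then came Hcst (692 ± 162), Klrc1 (435 ± 94.7), Klrk1 (321 ± 49.6), Klre1 (154 ± 62.5), Fcer1g (74.8 ± 60.6), Tyrobp (19.2 ± 5.40), Klrg1 (18.0 ± 16.5), Klrc2 (5.49 ± 2.65) and Ncr1 (1.00 ± 0.218). Neighbours overlapped except at both ends of the order. Per kilobase, Hcst made up 81.3% to 95.9% of the summed transcript level of the 3 adaptors in CD8 libraries and 4.78% to 8.74% in NK libraries. The reads of Tyrobp outnumbered those of Hcst 6.52-fold to 12.3-fold in NK libraries and were 0.0237 to 0.0491 of them in CD8 libraries.

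**Figure D3:**
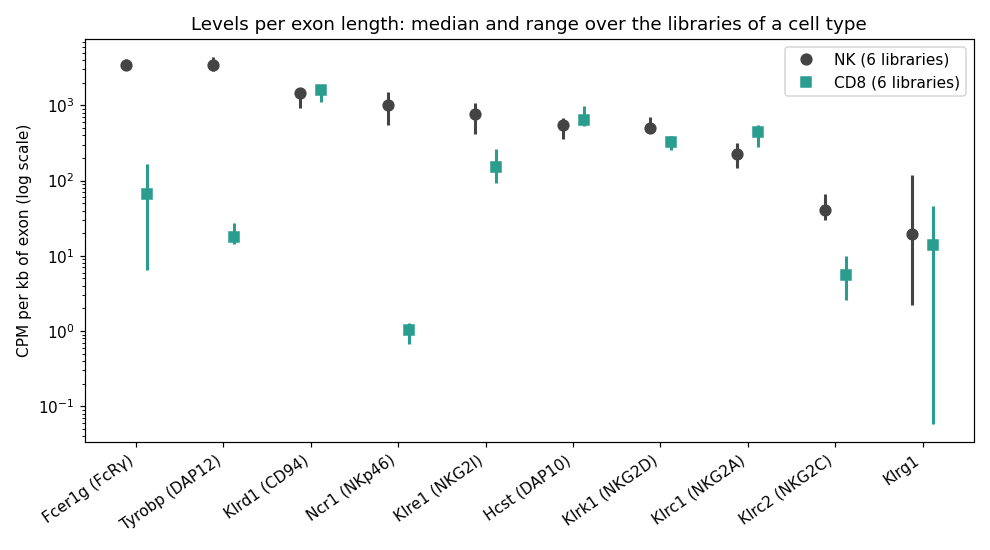
Level of each gene per kilobase of exon (vertical axis, CPM per kb, log scale); points are medians and vertical bars the range of 6 NK or 6 CD8 libraries, with genes ordered by the NK mean. Fcer1g and Tyrobp top the NK libraries with medians of 3404 and 3442 CPM per kb and lie at 65.5 and 17.8 CPM per kb in CD8 libraries, while the ranges of Klrd1 and Hcst overlap between the cell types.

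Genotype was compared next, with the question whether loss of TYK2 or of its kinase activity alters these receptors in tumour NK and CD8 T cells. By edgeR with the filter on low counts no gene of the 10 was called in any comparison of genotypes, in NK or CD8 libraries. Without the filter edgeR called Ncr1 for KE against WT in NK, Fcer1g for KE against WT and for KO against KE in CD8, and both for the difference of the KE effects, where it called 1.08%, 0.78%, 0.346% and 0.818% of all genes. With the filter, calls were also rare among all genes. In NK libraries 0% of them were called for KO or for KE relative to WT and between the 2 mutants. The shares in CD8 libraries were 0.0527% for KO, 0.0828% for KE and 0% between the mutants, and they were 0.00753% and 0% for the difference of the KO and of the KE effect between NK and CD8. At an unadjusted p under 0.05 stood 1 of the 10 genes for KO against WT in NK (Ncr1), 2 for KE against WT in NK (Klrc1 and Ncr1), 2 for KE against WT in CD8 (Hcst and Fcer1g), 2 for KO against KE in CD8 (Klre1 and Ncr1), 2 for the difference of the KE effects (Klrc1 and Ncr1) and 0 in the other 3. The shares of all tested genes at such a p were 6.3%, 6.01%, 5.56%, 3.62% and 6.19% in these 5 comparisons, and 3.8% for KO against KE in NK, 4.82% for KO against WT in CD8 and 5.29% for the difference of the KO effects. DESeq2 called Ncr1 in KE against WT in NK, where it called 3.39% of all genes, and 0 of the 10 genes in each of the other 7, where it called 1.27% to 3.26%.

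The mutant NK libraries nevertheless stood on one side of WT for 6 of the 10 genes. Klrc1, Klrc2, Klre1, Ncr1 and Hcst were higher in all 4 mutant NK libraries than in both WT libraries, which held for 7.08% of all tested genes, and Klrg1 was lower in all 4, which held for 10.8%. The 2 mutants share their WT libraries, and these are the libraries with the highest myeloid sums, so the 2 comparisons are not independent. The KE libraries lay on opposite sides of WT in NK and CD8 T cells, without overlap in either, for 4 of the 10 genes (Klrc1, Klrc2, Ncr1 and Fcer1g) and for 4.87% of all tested genes. For KO this held for 0 of the 10 and for 4.61% of all tested genes.

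Ncr1 had the largest positive difference of the 10 genes in NK libraries, for KO and for KE, without passing the call. It was at 843 and 934 CPM in WT, 2049 and 1230 CPM in KO and 1902 and 2298 CPM in KE, and the mutants did not overlap WT. The log2 fold change was 0.88 (SE 0.24, unadjusted p 0.00426, FDR 0.591) for KO and 1.24 (SE 0.24, unadjusted p 4.29e-04, FDR 0.190) for KE, where DESeq2 made a call at 1.22. The KO value was 0.47 without NK KO 1. For both mutants together, a contrast added after the data were seen in which 0.0301% of all genes were called, the value was 1.06 (SE 0.22, FDR 0.139), which DESeq2 called together with 4.07% of all genes and edgeR without the filter with 1.58%.

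The other marker of these cells, Klrb1c, also lay higher in mutant NK libraries, at 2152 and 1556 CPM in KO and 2248 and 1719 CPM in KE against 1066 and 1435 CPM in WT. It did not pass the call, with log2 fold changes of 0.57 (SE 0.42, edgeR FDR 0.844) for KO and 0.67 (SE 0.42, FDR 0.834) for KE. Set against Klrb1c of the same library, a scale chosen after the data were seen, Ncr1 had ratios of 0.791 and 0.651 in the WT libraries, of 0.952 and 0.790 in KO libraries and of 0.846 and 1.34 in KE libraries. On this scale KO overlapped WT and KE did not, and the mean log2 difference was 0.27 in place of 0.84 for KO and 0.57 in place of 1.24 for KE. Klrk1, which was 0.14 and 0.31 above WT in mean log2 CPM, was below WT on this scale, with mean log2 differences of -0.42 for KO and -0.36 for KE and no overlap, and Klre1 stood at 0.0022 and 0.11 in place of 0.57 and 0.78, with overlap. The library NK KO 1 had both a myeloid sum of 8214 CPM and an Ncr1 level of 2049 CPM.

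Klrg1 was the gene that was lower in every mutant library of both cell types. NK WT libraries held 170 and 84.5 CPM, NK KO 22.8 and 3.18 CPM and NK KE 14.3 and 31.7 CPM. CD8 WT libraries held 39.5 and 64.4 CPM, CD8 KO 23.2 and 0.0830 CPM and CD8 KE 16.2 and 9.16 CPM. Both WT libraries lay above all 4 mutant libraries in each cell type, which held for 1.57% of all tested genes in this direction and, in CD8 libraries alone, for 7.49%.

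The fold changes of Klrg1 were large and imprecise. On the log2 scale, NK libraries gave -3.29 for KO (FDR 0.766) and -2.47 for KE (FDR 0.836), and CD8 libraries gave -2.16 for KO (FDR 0.930) and -2.03 for KE (FDR 0.891), each with an SE of 1.58 to 1.66. Single libraries moved them: KO against WT was -5.32 without NK KO 1 in NK libraries, and in CD8 libraries it was -9.13 without CD8 KO 1, which leaves the library with 1 read, and -1.20 without CD8 KO 2. The replicates of NK KO alone differed from 22.8 to 3.18 CPM and those of CD8 KO from 303 reads to 1 read. For both mutants together the value was -2.88 (SE 1.27, FDR 0.548) in NK and -2.09 (SE 1.26, FDR 0.786) in CD8 libraries, where 0.203% of all genes were called, and the CD8 value was -5.58 without CD8 KO 1. The fit without the filter called Klrg1 for both mutants together in NK libraries, and 1.58% of all genes.

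Among the NKG2 genes, Klrc1 lay above WT in all mutant NK libraries and below WT in both CD8 KE libraries, without passing the call. Its log2 fold change was 0.53 (SE 0.26, FDR 0.766) for KO and 0.63 (SE 0.26, FDR 0.798) for KE in NK libraries, and -0.16 (SE 0.26, FDR 1) and -0.57 (SE 0.26, FDR 0.792) in CD8 libraries. The KE effect in NK minus that in CD8 was 1.20 (SE 0.37, unadjusted p 0.00876, FDR 0.737). Klrc2, Klrd1, Klrk1 and Klre1 had log2 fold changes of 0.15 to 0.74 for either mutant in NK libraries and of -0.62 to 0.68 in CD8 libraries, all with an FDR of 0.792 or more.

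Of the adaptors, Hcst was higher in all 4 mutant libraries of each cell type than in both WT libraries of that type. This held for 0.987% of all tested genes, and for 6.79% in CD8 libraries alone. The steps were small and none passed: on the log2 scale KO was 0.54 and KE 0.35 above WT in NK libraries (FDR 0.766 and 0.868), and KO was 0.22 and KE 0.65 above WT in CD8 libraries (FDR 1 and 0.792), with an SE of 0.25 each. Tyrobp had log2 fold changes of -0.16 to 0.24 in the 4 comparisons. In NK libraries its 95% interval was -0.66 to 0.77 for KO and -0.88 to 0.55 for KE. A 2-fold change of its library level in either direction thus lay outside both intervals. Myeloid sums of NK libraries were 19431 and 17637 CPM for WT but 229 to 8214 CPM for the mutants. Their part in these Tyrobp values was not tested. Relative to Klrb1c, Tyrobp stood at 1.82 and 1.42 for WT but at 0.714 to 1.14 for the mutant NK libraries. Fcer1g stood at 2.59 and 2.13 against 1.02 to 1.49 on this scale, and neither gene overlapped.

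Fcer1g was higher in CD8 KE libraries (123 and 92.9 CPM) than in CD8 WT (38.7 and 17.1 CPM) and CD8 KO (59.3 and 4.90 CPM). The log2 fold change of KE against WT was 1.95 (SE 0.79, unadjusted p 0.0332, FDR 0.792). The fit without the filter called it for KE against WT, for KO against KE and for both mutants together in CD8 libraries, where 0.78%, 0.346% and 0.882% of all genes were called. In the same CD8 KE libraries Tyrobp was at 8.18 and 15.5 CPM, against 11.4 and 8.63 CPM in CD8 WT (log2 fold change 0.24, SE 0.33), and Ncr1 at 1.32 and 1.03 CPM, against 1.52 and 1.63 CPM (-0.43, SE 0.29). The myeloid sum was 1029 and 536 CPM there against 548 and 853 CPM in CD8 WT, and Lyz2 was at 172 and 66.5 CPM against 18.2 and 61.2 CPM. The part of myeloid transcripts in this difference was not tested.

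**Figure D4:**
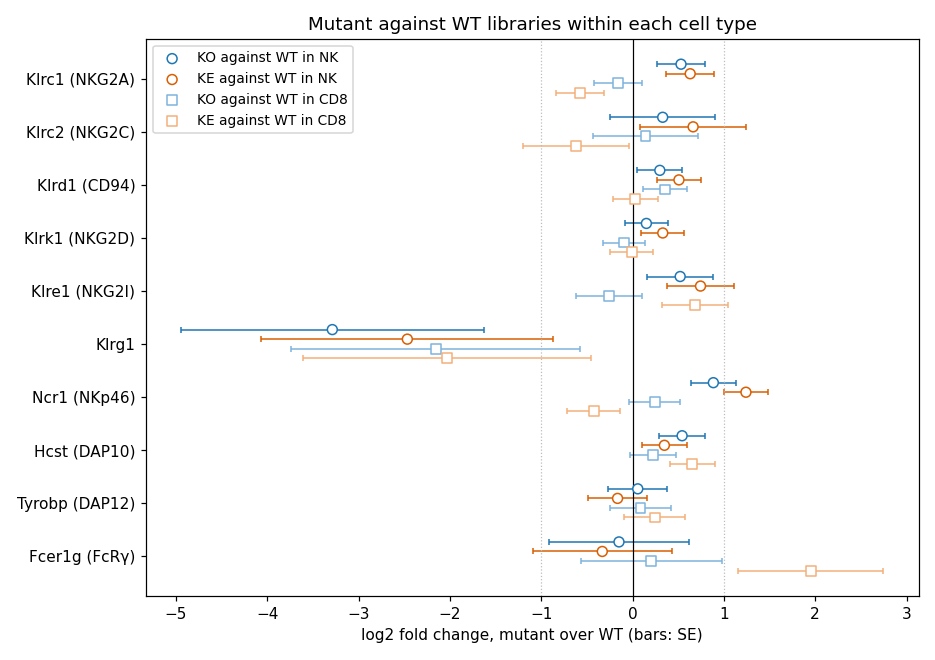
Log2 fold change of mutant over WT libraries (horizontal axis) for each gene, circles for NK and squares for CD8; bars are the SE, open points did not pass the call and dotted lines mark a 2-fold difference. No point is filled; Ncr1 reaches 1.24 in NK KE, Fcer1g 1.95 in CD8 KE, and the 4 Klrg1 values lie between -3.29 and -2.03 with SE of 1.58 to 1.66.

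The spread of the adaptors over the NK libraries is given beside that of myeloid transcripts, whose part in the adaptor levels was not tested. Over the 6 NK libraries Tyrobp varied 1.54-fold and Fcer1g 1.34-fold, while the myeloid sum ran from 229 to 19431 CPM. Of 13 genes whose receptors use these adaptors in myeloid and mast cells, 7 were tested. Fcgr1, the high-affinity IgG receptor, was at 249 and 414 CPM in NK WT, 21.1 and 0.148 CPM in NK KO and 0.0921 and 3.07 CPM in NK KE, and Trem2, a lipid-sensing receptor that uses DAP12, was at 135 and 44.7 CPM in NK WT and at most 8.69 CPM in mutants. None of the 7 was called between genotypes by edgeR with the filter, and 4 were lower at an unadjusted p under 0.05 for KE against WT in NK (median log2 fold change -8.59, against 0 over all genes, of which 6.01% stood at such a p). Fcgr3, the CD16 receptor that NK cells carry and that signals through Fcer1g, was at 433 and 612 CPM in NK WT and 195 to 271 CPM in mutant NK libraries (log2 fold change -1.19, SE 0.90, FDR 0.830 for both mutants).

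The summed levels of the ILC1 and T cell marker lists lay apart between WT and mutant NK libraries. None of the 8 tested ILC1 or 12 tested T cell markers was called by edgeR with the filter for KO, KE or both mutants against WT. At an unadjusted p under 0.05, 2 ILC1 markers were higher for KO and 4 for KE, and 2 T cell markers for KO and 3 for KE, where 6.3% and 6.01% of all tested genes stood at such a p in either direction. The summed level of 9 markers of ILC1 was 240 and 290 CPM in NK WT and 538 to 703 CPM in the 4 mutant NK libraries, and that of 13 T cell markers was 716 and 720 CPM against 920 to 1086 CPM. Trbc1 and Trbc2 made up most of the T cell sum. Trbc1 was at 492 and 444 CPM in NK WT and 445 to 591 CPM in mutant NK libraries, and Trbc2 at 161 and 152 CPM against 190 to 299 CPM. The defining CD8a transcript stayed at or under 4.52 CPM in all NK libraries. Conventional NK markers summed to 1639 to 2060 CPM without an order by genotype. The part of other lymphoid cells in the differences of Ncr1, Klrc1 and Klrg1 was not tested.

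**Figure D5:**
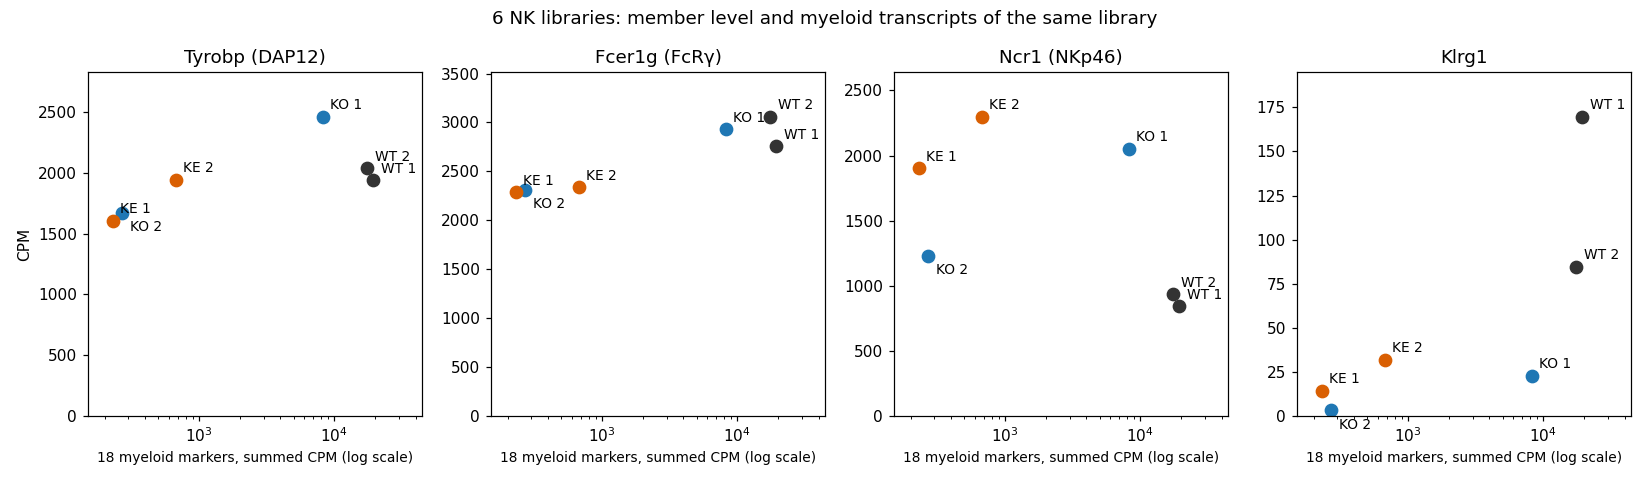
Level in CPM (vertical axis, linear from 0) of Tyrobp, Fcer1g, Ncr1 and Klrg1 in the 6 NK libraries against the summed CPM of 18 myeloid markers in the same library (horizontal axis, log scale). WT 1 and WT 2 lie at the right with the lowest Ncr1 (843 and 934 CPM) and the highest Klrg1 (170 and 84.5 CPM), whereas KO 1 has a myeloid sum of 8214 CPM with Ncr1 at 2049 CPM.

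Genes related to the 10 receptors were compared in the same way. Of 17 related receptor genes tested, 7 were called higher and 4 lower in NK than in CD8 libraries in the average of the genotypes. In this contrast 4.47% of all tested genes were called. The 17 genes had a median log2 fold change of -0.58 (0.03 over all genes). Klrb1c had a log2 fold change of 9.27 (SE 0.35, FDR 1.26e-07), Klri2 5.94 (SE 0.47, FDR 5.07e-05) and Cd7, a co-receptor of early lymphocytes, 2.02 (SE 0.20, FDR 2.04e-04). Cd160, Cd226, Cd96 and Cd27 were the 4 that were lower. Cd2, an adhesion receptor, was called lower in NK cells of WT (-1.36, SE 0.21, FDR 0.0125). None of the 17 was called between genotypes by edgeR with the filter. At an unadjusted p under 0.05 stood 5 of them for KE and 5 for both mutants against WT in CD8 libraries. The shares of all tested genes at such a p were 5.56% and 6.72% there. Fewer of the 17 stood at such a p in the other comparisons of genotypes.

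Among the ligands of these receptors, H2-T23 had the highest level in all 12 libraries. Of 9 ligand genes in the table, 5 were tested, and 0 were called in any comparison by edgeR with the filter. At an unadjusted p under 0.05 stood 2 for both mutants against WT in CD8 libraries, where 6.72% of all tested genes did. Fewer of the 5 stood at such a p in every other comparison. H2-T23, which encodes Qa-1b, the ligand of the CD94 pairs, was at 1028 and 918 CPM in NK WT and 542 to 670 CPM in the 4 mutant NK libraries. Its log2 fold change was -0.73 (SE 0.25, unadjusted p 0.0147, FDR 0.757) for KO and -0.68 (SE 0.25, unadjusted p 0.0202, FDR 0.728) for KE. In CD8 libraries H2-T23 was at 1041 and 1162 CPM in WT, 1045 and 602 CPM in KO and 630 and 688 CPM in KE. It was chosen for its level after the values were seen.

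Of 30 genes that signal downstream of the adaptors, 8 were called higher and 5 lower in NK libraries in the average of the genotypes, where 4.47% of all tested genes were called. The 30 genes had a median log2 fold change of 0.50 (0.03 over all genes). Syk, the kinase recruited by DAP12 and the FcR gamma chain, was at 45.7 to 93.3 CPM in NK and 0 to 0.667 CPM in CD8 libraries, and Zap70, its relative downstream of the T cell receptor, was at 119 to 255 CPM and 204 to 441 CPM, with overlap. Plcg2 was at 43.5 to 137 CPM in NK and 0 to 2.08 CPM in CD8 libraries, and the converse held for Plcg1 at 0 to 12.8 CPM and 121 to 189 CPM. Syk, Zap70 and Plcg1 are shown for their pairing by family, chosen after their values were seen. Sh2d1b1, which encodes the SAP family adaptor EAT-2, had an averaged log2 fold change of 9.86 (SE 0.77, FDR 4.33e-05), Lyn, a SRC family kinase, one of 5.24 (SE 0.52, FDR 2.58e-04) and Lat, the scaffold of T cell receptor signalling, one of -3.15 (SE 0.33, FDR 3.38e-04). Inpp5d, which encodes the phosphatase SHIP1, was the 1 of 8 inhibitory phosphatase genes that was higher in NK cells (1.25, SE 0.20, FDR 0.00471). None of these 38 was called between genotypes by edgeR with the filter, and at an unadjusted p under 0.05 stood 4 of the 30 for KO and 3 for KE against WT in NK libraries, where 6.3% and 6.01% of all tested genes did. Sh2d1b2, a neighbour and close copy of Sh2d1b1, was at 35.5 and 40.4 CPM in NK WT and 0 to 0.276 CPM in mutant NK libraries (log2 fold change -7.95, SE 2.19, FDR 0.338 for both mutants), and was chosen after its values were seen.

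The genes most like each of the 10 over the 12 libraries were found by Pearson's r of log2 CPM, as a description, since the libraries fall into 2 cell types that dominate it. Ncr1 was most like Klri1 (r 0.996) and Rbpms (0.994), Tyrobp like Klrb1c (0.997) and Sh2d1b1 (0.995), and Fcer1g like Abl1 (0.969) and Cd244a (0.966). Klrc2 was most like Ugt1a7c (0.960) and Abcg2 (0.959), Klre1 like Itgb1 (0.953) and Il2rb (0.952), and Klrk1 like Clnk (0.939) and Spry2 (0.939). The genes without an NK excess had weaker likenesses, with Klrc1 nearest to Dnajc15 (0.932) and Ccdc50 (0.918), Klrg1 to Sil1 (0.918) and Psmd2 (0.900), Klrd1 to Rgs19 (0.873) and Rps19-ps6 (0.869), and Hcst to Rpl11 (0.869) and Snrpg (0.865).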

How the data were processed

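The authors sorted 300 cells per library, made full-length cDNA by Smart-seq2, trimmed the single-end reads with Trimmomatic, aligned them with STAR to GRCm38 (mm10) and deposited raw counts of uniquely aligned reads in exons per Ensembl gene. Whether counting used strand is not stated. From these deposited counts of 54232 identifiers (54079 with a symbol), edgeR 4.0.16 (R 4.3.3, limma 3.58.1) was run with TMM scaling, 1 mean per group over all 12 libraries and robust quasi-likelihood tests, two-sided, on the 13279 genes whose normalized counts averaged 10 or more. A gene was called at a Benjamini-Hochberg FDR under 0.05 and at least a 2-fold difference. SE is the fold change divided by the root of the F statistic, and intervals are 95%. CPM are counts relative to 1e+06 reads of the TMM-scaled library, log2 CPM used a prior count of 2, and levels between genes were divided by summed exon length. The script was tested on simulated counts in which genes drawn from all tested ones were changed. For KO against WT in NK libraries it called 0 of 50 genes changed 4-fold, 11 of 50 changed 16-fold and 20 of 50 changed 256-fold, with 2 false calls. For NK against CD8 in WT it called 1, 11 and 21 of 50, with 1 false call. A gene that was not called may therefore have changed.

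The alternatives were DESeq2 1.42.0, RLE size factors, no filter on low counts, the libraries of a comparison only, the replicate number as a block, and each library left out. Shares of genes called are of the 10962 to 12506 genes with an adjusted p for DESeq2 and of 23707 genes without the filter. The 10 genes, the gene lists and the tests were chosen with earlier results of these data known. The averaged contrasts and the scale relative to Klrb1c were added after seeing the data. Named were the 10 genes, Tyk2, the sort markers, from each pathway list up to 3 called genes with the smallest FDR in a comparison, the marker genes with the highest levels, and the 2 genes most like each of the 10. Other pathway and marker genes were named after their values were seen. All columns of the table belonged to the 12 libraries, and none of the authors' own comparisons was used.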

Additional observations from a re-analysis of the deposited data

Results flagged for a closer look

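For 4 of the 10 genes both KE libraries lay on one side of both WT libraries in NK cells and on the other side in CD8 T cells, which held for 4.87% of all tested genes. The KE effect in NK minus that in CD8 was 1.20 on the log2 scale for Klrc1 (SE 0.37, edgeR FDR 0.737), 1.28 for Klrc2 (SE 0.82, FDR 0.864), 1.67 for Ncr1 (SE 0.38, FDR 0.433) and -2.28 for Fcer1g (SE 1.10, FDR 0.784). The difference itself passed for none of the 4 by edgeR with the filter on low counts or by DESeq2, and for Ncr1 and Fcer1g by edgeR without the filter. With the filter, Klrc1 and Ncr1 had an unadjusted p of 0.00876 and 0.00119. For Ncr1 the CD8 side rests on 14 to 22 reads per library, and for Klrc2 on 114 to 271 reads.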

How the results depend on the processing

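With 2 libraries per group and a common biological coefficient of variation of 109%, edgeR made few calls between genotypes, and other tools made more. DESeq2 called 374, 389 and 203 genes for KO relative to WT, for KE relative to WT and between the mutants in NK libraries and 234, 333 and 156 in CD8 libraries, where edgeR called 0, 0, 0, 7, 11 and 0, and edgeR without the filter called 195, 256, 96, 124, 185 and 82. For the difference of the KO and the KE effects DESeq2 called 196 and 277 genes and the unfiltered fit 131 and 194, against 1 and 0. NK against CD8 in WT, KO and KE gave 832, 815 and 810 genes by DESeq2 and 537, 524 and 498 without the filter, against 103, 120 and 93, and the average gave 1593 and 1231 against 594. Both mutants against WT gave 457 and 374 genes in NK and 323 and 209 in CD8 libraries, against 4 and 27. The fit of the compared libraries only gave 62 genes for NK against CD8 in KO, 60 in KE, and 0 in each of KO, KE and both mutants against WT in CD8 libraries. Leaving out 1 library gave 49 to 128, 65 to 125 and 33 to 112 genes for NK against CD8 in WT, KO and KE, 403 to 554 in the average, 0 to 25 for both mutants in NK (25 without NK KO 1) and 4 to 28 in CD8 libraries (4 without CD8 WT 1 or CD8 KO 1). It gave 0 to 5 genes for KO and 0 to 11 for KE against WT in NK libraries, highest without NK KO 1 and, for KE, equally without NK KO 2, and 0 to 1 between the mutants. In CD8 libraries it gave 1 (without CD8 KO 1 or CD8 KO 2) to 13 (without CD8 KE 1) for KO, 0 (without CD8 WT 1) to 8 for KE, and 0 to 1 between the mutants. The differences of the KO and KE effects gave 0 to 3 and 0 to 2.

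Of the 10 genes, DESeq2 called 1 (Ncr1) for KE and 1 (Ncr1) for both mutants against WT in NK libraries. Without the filter 1 (Ncr1) was called for KE and 2 (Klrg1 and Ncr1) for both mutants in NK, 1 (Fcer1g) for each of KE against WT, KO against KE and both mutants in CD8, and 2 (Ncr1 and Fcer1g) for the difference of the KE effects. NK against CD8 in WT gave 3 in place of 5 (Ncr1, Tyrobp and Fcer1g) with the compared libraries only. In that setting KO gave 3, without Fcer1g, and KE gave 3 in place of 4, with Fcer1g called and Klrc2 and Klre1 lost. Without the filter NK against CD8 gave 6 genes in WT (Klrc2 added), 5 in KO (Klrc2 added) and 5 in KE (Fcer1g added), the numbers and genes that DESeq2 called. Without CD8 WT 1 it gave 2 (range 2 to 5), and in KE it gave 2 without NK KE 1 (range 2 to 4).

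With the replicate block, NK against CD8 gave 3 of the 10 genes in WT and 2 in KE (Ncr1 and Tyrobp), and 0 were called between genotypes. Among all tested genes NK against CD8 gave 76 in WT and 66 in KE with the block, against 103 and 93 in the main fit. The labels do not say that a number marks a shared animal, and the correlation of the replicate differences between groups was -0.025 to 0.0378, so the libraries share only a number. KO against WT in CD8 libraries called 3 genes, KE 4, both mutants 17, and both mutants in NK 1 with the block.

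No fold change called in the filtered fit turned its sign. Others did: Fcer1g for KO in CD8 libraries was -0.00011 with the block, Klrd1 for KE in CD8 was -0.0011 by DESeq2 and -0.0011 with RLE factors, and Klrk1 relative to Klrb1c was -0.42 for KO and -0.36 for KE. Leaving out 1 library gave, for NK against CD8, Klrg1 -1.86 to 7.13 and Hcst -0.16 to 0.089 in KO and Klrd1 -0.097 to 0.55 in KE. For KO in NK it gave Klrk1 -0.0057 to 0.27 and Tyrobp -0.25 to 0.29, and for both mutants Tyrobp -0.21 to 0.059. For KO in CD8 it gave Klrc1 -0.38 to 0.0057, Klrc2 -0.97 to 0.75, Klre1 -0.63 to 0.24, Tyrobp -0.33 to 0.39 and Fcer1g -2.51 to 1.05. For KE in CD8 it gave Klrd1 -0.33 to 0.32, Klrk1 -0.35 to 0.26 and Tyrobp -0.29 to 0.63, and for both mutants Klrc2 -0.81 to 0.063, Klrk1 -0.22 to 0.085, Klre1 -0.15 to 0.71, Tyrobp -0.10 to 0.38 and Fcer1g -0.28 (without CD8 KO 1) to 1.78, from 1.08 with all libraries, a value that passed in the fit without the filter. The cause of these shifts was not tested.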
